A study of Rattus norvegicus with 8 samples.

Results

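Genes of neuronal excitability were compared in the whole medial prefrontal cortex of adult rats that had been given fluoxetine as juveniles. The set holds 7 genes: Scn2b, the potassium channel genes Kcnc1, Kcng1, Kcnab1 and Dpp6, the nicotinic receptor gene Chrnb2 and the chloride transporter gene Slc12a5. They were selected on the measured difference itself, because each is a channel or transporter gene with a probe in the authors' deposited lists of changed probes. Those lists name 530 genes through 582 probes, of the 15207 probes with values. Each of the 7 genes has 1 listed probe, and all 7 stand in the list of higher probes, which holds 322 probes against 260 in the list of lower probes. The JFLX group was given fluoxetine, a serotonin reuptake inhibitor, at 10 mg/kg from postnatal day 28 to 48. The control group, JVeh in the labels, was given the vehicle, a 5% sucrose solution, over the same days. RNA of both groups was taken at 6 months of age, and the labels give neither strain nor sex. Each group has 4 samples, and each sample was hybridised with Cy3 to its own array. Nothing states that the samples came from separate animals, so the spread between them may be partly technical. Titles and source names set the groups here, although the description field of control replicates 2 to 4 mentions fluoxetine. All 8 arrays were on 1 slide, with the JFLX arrays in one block of positions and the control arrays in the other, so position and treatment cannot be told apart. The SD over all probes ran from 0.64 to 0.74 on the JFLX arrays and from 0.35 to 0.52 on the control arrays, on which each probe was centred.

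A neuron's firing depends on the balance of its ion channels. Sodium channels drive the rising phase of the action potential, voltage-gated potassium channels repolarise the membrane and set the interval to the next spike, and auxiliary subunits tune how many channels reach the membrane and how fast they open and close. Nicotinic receptors let acetylcholine excite cortical neurons and their inputs, and the potassium-chloride cotransporter keeps chloride inside neurons low, so that GABA can inhibit them.

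The 7 probes are shown because every value given for a gene rests on 1 such 60-base sequence. They are printed 5′ to 3′ as in the deposited lists, in lower case since no stretch is singled out.
Scn2b: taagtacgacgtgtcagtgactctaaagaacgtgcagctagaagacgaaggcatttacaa
Kcnc1: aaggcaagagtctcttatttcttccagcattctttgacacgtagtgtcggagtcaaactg
Kcng1: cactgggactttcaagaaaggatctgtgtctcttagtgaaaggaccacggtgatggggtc
Kcnab1: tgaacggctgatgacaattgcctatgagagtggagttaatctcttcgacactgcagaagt
Dpp6: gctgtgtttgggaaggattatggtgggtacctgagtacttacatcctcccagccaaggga
Chrnb2: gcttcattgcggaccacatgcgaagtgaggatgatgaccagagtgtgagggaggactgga
Slc12a5: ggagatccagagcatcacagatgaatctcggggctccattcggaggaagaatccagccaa

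The GC content of these probes ran from 43.3% for Scn2b and Kcnc1 to 55.0% for Chrnb2, against a median of 45.0% over the 322 probes of the higher list. No stretch longer than 8 bases was shared between any pair of the 7 probes on either strand, so the 7 measurements do not share a target sequence. The deposited positions come with no stated genome build. In them the Scn2b probe lies on chr8:48086524-48086583, the Kcnc1 probe on chr1:97047499-97047558 and the Kcnab1 probe on chr2:155011594-155011653, each listed from low to high. The Kcng1 probe lies on chr3:159334120-159334179 and is listed from high to low. Each of these 4 intervals is 60 bases long. For the remaining genes the interval is longer than the probe: 3521 bases for Dpp6 (chr4:2858442-2861962, listed from high to low), 3715 bases for Chrnb2 (chr2:181912140-181915854, from high to low) and 1117 bases for Slc12a5 (chr3:155939345-155940461, from low to high). The target of all 7 probes is annotated as an mRNA, and for Kcng1 as a predicted one. Exon, intron and UTR were not assigned, since no annotation of that build was used here.

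The deposited value of a probe is a log2 value centred on the median of the 4 control arrays, so it gives differences between arrays and no level. The voltage-gated sodium channel gene Scn2b, which encodes a beta subunit that binds the pore-forming subunit and promotes its delivery to the membrane, had the largest difference of the 7 genes. It had values of 0.99, 1.09, 0.98 and 1.19 in JFLX replicates 1 to 4, against 0.42, -0.28, 0.10 and -0.10 in control replicates 1 to 4. The groups did not overlap, and the lowest JFLX array stood 0.55 above the highest control array. The mean was 1.06 ± 0.10 in JFLX and 0.04 ± 0.30 in controls (SD, n = 4 each), so the controls varied more than the JFLX arrays. The fitted difference, JFLX minus control, was 1.03 ± 0.16 on the log2 scale (SE), a 2.04-fold higher signal in JFLX. In whole tissue, a change in the share of a cell type and a change in RNA per cell cannot be told apart.

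Of the potassium channel genes, 2 encode channel subunits. Kcnc1 encodes the pore of a fast Kv3 channel that lets interneurons fire at high rates. Its values were 0.47, 0.53, 0.63 and 0.13 in JFLX replicates 1 to 4, against 0.01, -0.26, 0.02 and -0.01 in control replicates 1 to 4. One array in each group stood low, JFLX replicate 4 and control replicate 2, and the gap between the groups was 0.11. The fitted difference of Kcnc1 was 0.50 ± 0.14 (log2, SE). Kcng1 encodes a subunit that forms no channel alone and alters Kv2 channels when it joins them. JFLX replicates 1 to 4 had 0.64, 0.31, 0.29 and 0.45 at the Kcng1 probe, against 0.20, -0.11, 0.11 and -0.11 in control replicates 1 to 4. The highest control array came within 0.09 of the lowest JFLX array, the narrowest gap of the 7 genes. At 0.40 ± 0.13 (log2, SE) the difference of Kcng1 was also the smallest.

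The other two potassium channel genes encode auxiliary subunits. Kcnab1 encodes a cytoplasmic beta subunit of Kv1 channels that can speed their inactivation. Its values were 0.33, 1.26, 0.49 and 0.42 in JFLX replicates 1 to 4, against 0.02, 0.18, -0.02 and -0.14 in control replicates 1 to 4. JFLX replicate 2 stood far above the rest of the JFLX arrays, and the SD was 0.43 in JFLX and 0.13 in controls. The difference of Kcnab1 was 0.61 ± 0.21 (log2, SE) with all arrays and 0.40 without JFLX replicate 2. Dpp6 encodes a single-pass membrane protein related to dipeptidyl peptidases that joins Kv4 channels and increases their A-type current. JFLX replicates 1 to 4 gave 0.41, 0.57, 0.63 and 0.55 for Dpp6, against 0.04, 0.17, -0.08 and -0.04 in control replicates 1 to 4. The arrays of each group lay close together, with an SD of 0.09 in JFLX and 0.11 in controls. The difference of Dpp6, at 0.52 ± 0.10 (log2, SE), had the smallest SE of the 7 genes.

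Chrnb2 encodes the beta subunit of the main heteromeric nicotinic acetylcholine receptor of the brain. It had 0.62, 1.06, 0.77 and 0.86 in JFLX replicates 1 to 4, against 0.11, -0.10, 0.10 and -0.22 in control replicates 1 to 4. The lowest JFLX array lay 0.51 above the highest control array. The mean was 0.83 ± 0.18 in JFLX and -0.03 ± 0.16 in controls (SD, n = 4 each). With a difference of 0.85 ± 0.13 (log2, SE), or 1.81-fold, Chrnb2 came after Scn2b.

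Slc12a5 encodes the neuronal potassium-chloride cotransporter KCC2. Its values were 0.50, 0.36, 0.51 and 0.57 in JFLX replicates 1 to 4, against 0.0069, -0.0069, 0.20 and -0.31 in control replicates 1 to 4. The JFLX arrays lay close together (SD 0.09), and the controls were spread mainly by control replicates 3 and 4 (SD 0.21). The difference of Slc12a5 was 0.51 ± 0.13 (log2, SE), a 1.42-fold higher signal in JFLX.

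**Figure D1:**
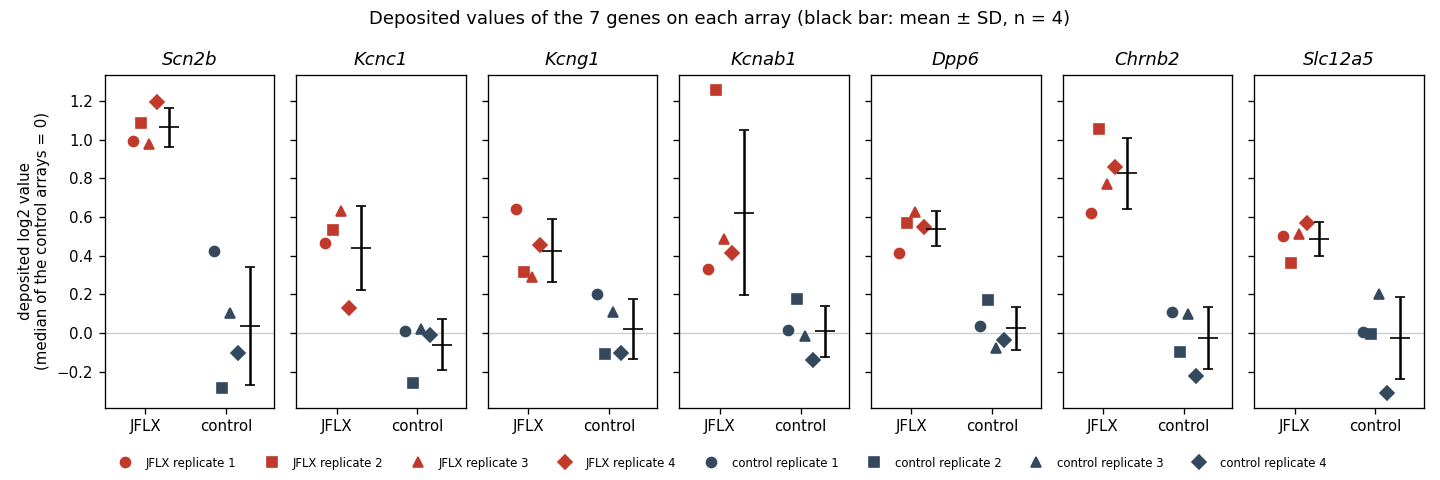
Deposited log2 value (vertical axis, control median at 0) of each of the 7 genes on each of the 8 arrays, JFLX left and control right, with a marker shape for each replicate number; black bars are mean ± SD, n = 4. In all 7 panels every JFLX point is above every control point, by 0.55 for Scn2b and by 0.09 for Kcng1, and JFLX replicate 2 stands apart at 1.26 for Kcnab1.

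A probe enters the higher list of the authors' deposited table with a mean JFLX value of 0.4 or more, a p of 0.05 or less and detected flags on 3 or 4 JFLX arrays or more. These are the values that chose the genes, and they are given as a description. In the authors' deposited table the mean JFLX value ran from 0.42 for Kcng1, the gene nearest the limit, to 1.06 for Scn2b. The p-value in the authors' deposited table ran from 0.000335 for Dpp6 to 0.0335 for Kcnab1, the gene nearest that limit. An unlisted probe with no name here lay just under the fold limit, with a mean JFLX value of 0.399 and its p within the limit. Fold and p alone do not set the list, since 1088 unlisted higher probes were within both limits. For unlisted probes the p was calculated here. What kept these 1088 probes out of the list was not tested. All 7 probes were flagged as detected on 4 of 4 JFLX arrays and 4 of 4 control arrays in the authors' deposited table.

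Because of that choice, the counts that follow carry no weight about these genes. At all 7 genes the lowest JFLX array exceeded the highest control array, as it did at 10.0% of all probes. In the higher list it did so at 238 of 322 probes. In a limma fit over all 15207 probes, 3 of the 7 genes passed an adjusted p of 0.05 in the higher direction, Scn2b, Chrnb2 and Dpp6, where 5.89% of all probes did. Of the 322 probes of the higher list, 105 passed. The other 4 of the 7 genes, Kcnc1, Kcng1, Kcnab1 and Slc12a5, did not pass. Of the 7 genes, the number that passed was 1 (Scn2b) with the replicate number as a block, 0 with quantile normalization and 0 without the unlisted probes within the limits on fold and p. The call of Dpp6 was lost in 9 of 14 other settings, that of Chrnb2 in 3 and that of Scn2b in 2. The median difference was 0.52 over the 7 genes, 0.57 over the 322 probes of the higher list and 0.04 over all probes. Differences larger than that of Scn2b were found at 8.32% of all probes, and larger than that of Kcng1 at 18.1%.

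By size the differences ran from Scn2b through Chrnb2, Kcnab1, Dpp6, Slc12a5 and Kcnc1 to Kcng1. Taken array by array, the difference of Scn2b exceeded that of Chrnb2 by 0.17 ± 0.13 and that of Chrnb2 exceeded that of Kcnab1 by 0.24 ± 0.17 (SE of the difference between both probes, n = 4 per group). Both gaps were less than 2 times their SE. From Kcnab1 down to Kcng1, each gene and the next in order differed by less than 1 SE. The full span from Scn2b to Kcng1 was 0.62 ± 0.13.

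Background-subtracted intensities, which carry no scaling between arrays, were also read for the same 7 probes. The labels assign them to groups only, and they are listed in the order of the deposited columns. Apart from a constant for each probe, log2 intensity and deposited value differed by the same amount at all 7 probes of an array. The columns therefore follow replicates 1 to 4 of each group. Scn2b had intensities of 104, 107, 109 and 67.5 on the JFLX arrays, against 69.9, 48.2, 48.7 and 47.9 on the control arrays. The fourth JFLX array fell within the control range, and the others were brighter than every control. The same JFLX column, that of replicate 4, was the dimmest of its group at 7 of 7 genes. Its median over the 582 listed probes was 32.5, against 57.3 to 63.5 for the other JFLX columns and 36.7 to 51.0 for the control columns.

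Chrnb2 had 62.1, 81.2, 73.0 and 41.3 on the JFLX arrays, against 43.5, 42.3, 37.6 and 34.1 on the control arrays, again with one JFLX array inside the control range. Kcnc1 had 525, 532, 623 and 234 on the JFLX arrays, against 381, 356, 334 and 371 on the control arrays. For Kcnc1 the dimmest JFLX array lay below every control array. Kcng1, with 1333, 1026, 1105 and 660.0 on the JFLX arrays against 976, 887, 798 and 780 on the control arrays, showed the same order.

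Slc12a5 had 120, 105, 128 and 70.7 on the JFLX arrays, against 84.6, 94.5, 84.5 and 67.2 on the control arrays. For Dpp6 the intensities were 230, 247, 282 and 142 on the JFLX arrays, against 176, 218, 142 and 165 on the control arrays. Both genes had their dimmest JFLX array within the control range. Kcnab1 had 69.9, 128, 82.5 and 41.8 on the JFLX arrays, against 56.0, 70.5, 47.7 and 49.6 on the control arrays, and only 2 of its JFLX arrays exceeded the brightest control. Before scaling, the groups therefore overlapped at 7 of 7 genes. JFLX replicate 4, dim over the listed probes as a whole, fell among or below the controls at each gene. Its offset is shared by all 7 probes and is no trait of any of them.

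**Figure D2:**
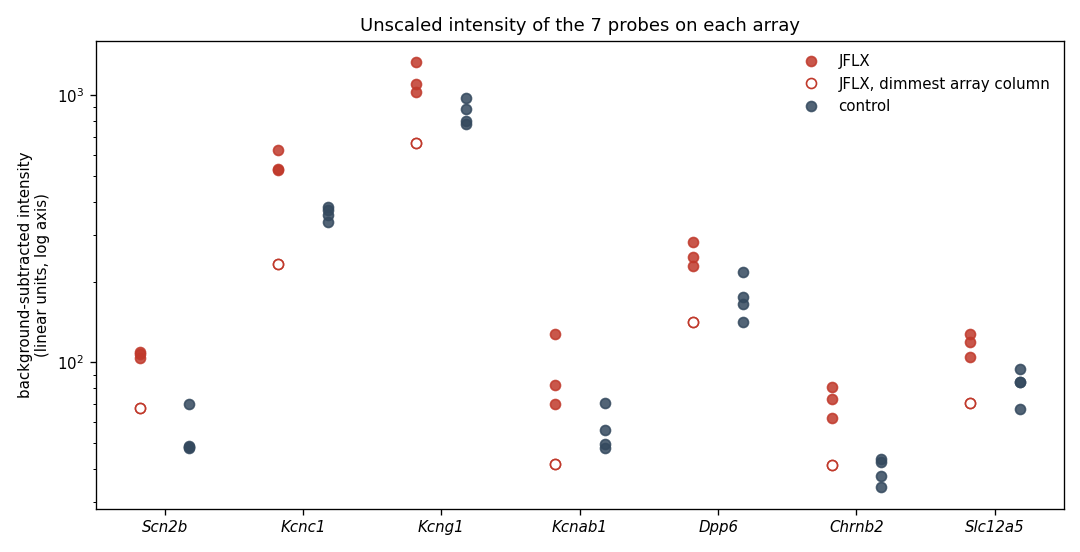
Background-subtracted intensity (vertical axis, linear units on a log scale) of the 7 probes on each array, JFLX left of control for each gene. The open circle is the JFLX column with the lowest median intensity; it is the lowest JFLX point for all 7 genes and overlaps the control points or lies below them.

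Without scaling, the mean log2 intensity was still higher in JFLX at all 7 genes, by 0.85 for Scn2b, 0.67 for Chrnb2, 0.43 for Kcnab1, 0.33 for Dpp6, 0.33 for Slc12a5, 0.32 for Kcnc1 and 0.22 for Kcng1. Centring each array on its 75th percentile moved the median difference of all probes by -0.19, from 0.04 to -0.15, which is below 0. After this centring Kcng1 stood at 0.21, Kcnc1 at 0.31, Slc12a5 at 0.32 and Dpp6 at 0.32. Quantile normalization gave 0.58 for Scn2b, 0.57 for Chrnb2 and 0.28 for Slc12a5. The direction was thus the same under each scaling, whereas the difference was over 1.5 times smaller for Kcng1, Slc12a5 and Dpp6 under all 3 of them, for Kcnc1 with 75th percentile centring and without scaling, and for Scn2b under quantile normalization. Centring at the 75th percentile lowered the difference of all 7 genes by a common amount, and so did leaving out scaling. In both, the ratio is therefore largest where the difference was smallest and shows no sensitivity of a single gene. Leaving out 1 array at a time gave 0.92 to 1.16 for Scn2b, 0.78 to 0.92 for Chrnb2, 0.48 to 0.57 for Dpp6 and 0.33 to 0.46 for Kcng1.

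**Figure D3:**
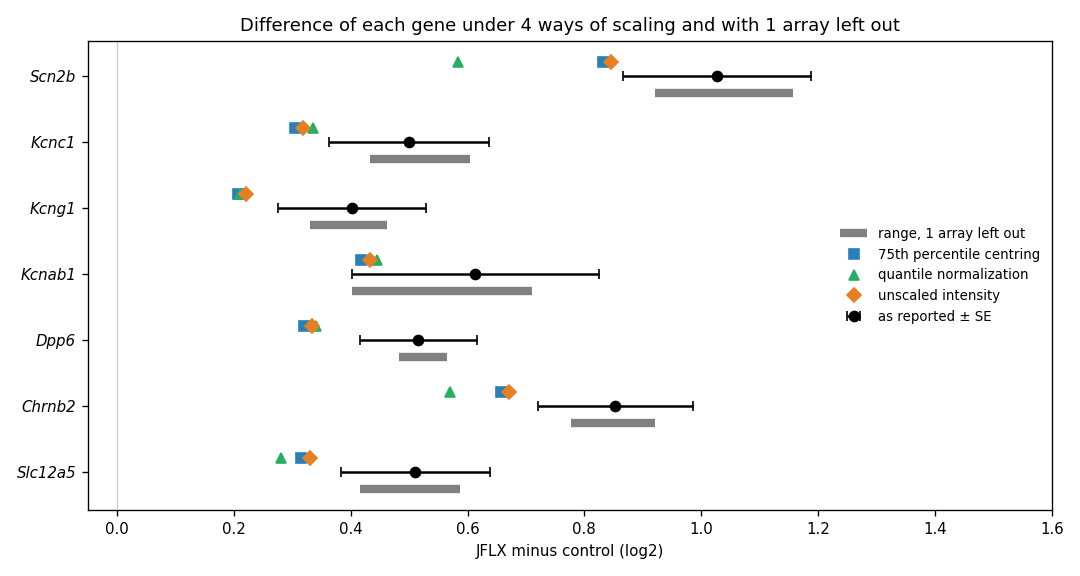
Difference between JFLX and control (horizontal axis, log2) of each gene as reported with its SE (black), after centring arrays at the 75th percentile, after quantile normalization and from unscaled intensities; grey bars are the range with 1 array left out. All points lie above 0, and those of Kcng1 are the lowest, at 0.21 to 0.22 under the other 3 scalings.

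The deviations of arrays from their group mean hold no part of the difference between groups. After each array was set against the mean of its own group, the 21 pairs of the 7 genes had a median Pearson correlation of 0.10 over the 8 arrays, with 12 of 21 above 0. The median was 0.09 over all pairs of probes in the higher list, which share the same arrays and scaling. The highest value was that of Kcnab1 with Chrnb2, at 0.68 (Spearman 0.67), and without the arrays farthest out for Kcnab1, 2 in number, it was 0.79. The lowest was that of Kcng1 with Dpp6, at -0.63 (Spearman -0.74, and -0.63 without the 2 arrays farthest out for Kcng1). Control replicate 1 lay above its group mean at all 7 genes, by 0.0070 to 0.39, and each of the other 7 arrays lay above at some genes and below at others. JFLX replicate 1 had the lowest JFLX value at 3 genes and the highest at 1. Control replicate 1 had the highest control value at 3 genes, and control replicates 2 and 4 each had the lowest at 3.

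**Figure D4:**
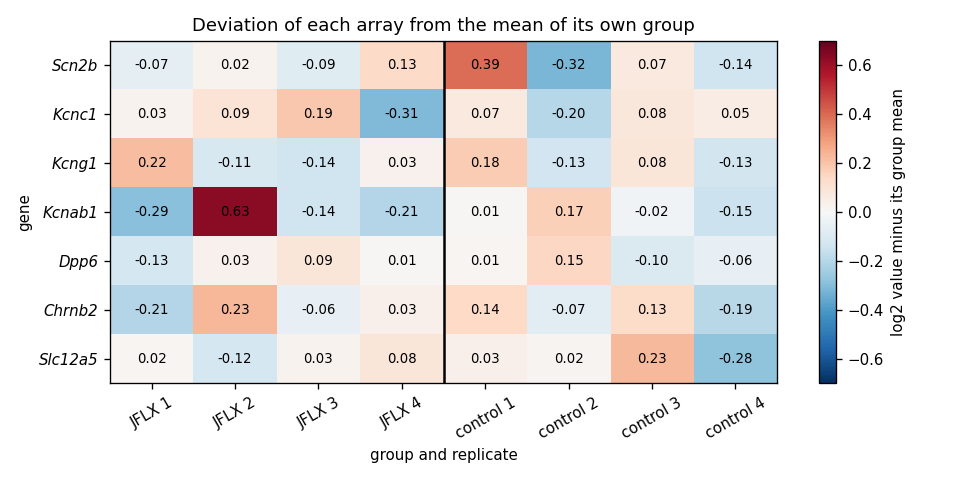
Log2 value of each gene on each array minus the mean of its own group (colour and printed value), JFLX arrays left of the black line and control arrays right of it. The largest deviation is 0.63 for Kcnab1 on JFLX replicate 2, and control replicate 1 is the one column with the same sign, above 0, in all 7 rows.

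Among the named genes of the deposited lists, the 1 whose deviations followed each gene most closely differed from gene to gene. It was Snw1 for Scn2b (Pearson r of 0.97 over 8 arrays), Gprc5b for Kcnab1 (0.97), Cdc25a for Kcnc1 (0.97), RGD1311344 for Kcng1 (0.95), Atp1b2 for Dpp6 (0.90), Ppm1h for Chrnb2 (0.95) and Lzts3 for Slc12a5 (0.89). Next came Rnf24 for Scn2b (0.96), Itpr2 for Kcnab1 (0.93), Fgf5 for Kcnc1 (0.92), Nav3 for Kcng1 (0.92), Gnai2 for Dpp6 (0.87), Uhrf1 for Chrnb2 (0.91) and Loxl3 for Slc12a5 (0.87). With 529 genes compared over 8 arrays, high values occur among any such genes. Of these genes, 5 stand in the list of lower probes: Cdc25a, Fgf5, Itpr2, Uhrf1 and Loxl3.

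Lists of 195 excitability genes, drawn up with the 7 genes already known, gave 10 genes with a name in the deposited lists. All 10 stand in the list of higher probes, but only listed probes carry names, so the genes without a name here have no value. Of the 10, 7 are the chosen set itself, and the deposited lists hold 322 higher and 260 lower probes. The 3 genes outside the set were Kcnj10, Slc12a7 and Atp1b2. Kcnj10, the inward rectifier potassium channel of astrocytes, ran from 0.57 to 0.92 in JFLX and from -0.39 to 0.32 in controls. Its difference of 0.76 ± 0.17 (log2, SE) passed the limma threshold here and in only 1 of 14 other settings.

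Slc12a7, another potassium-chloride cotransporter, ran from 0.31 to 0.63 in JFLX and from -0.01 to 0.27 in controls, with a difference of 0.42 ± 0.12. Atp1b2, a beta subunit of the sodium pump, ran from 0.24 to 0.77 in JFLX and from -0.28 to 0.43 in controls, so its groups overlapped, with a difference of 0.55 ± 0.20. Neither Slc12a7 nor Atp1b2 passed. Of the voltage-gated sodium channel list, 1 of 15 genes is named (Scn2b), and of the voltage-gated potassium channel list 4 of 51, the 4 described here. The nicotinic receptor list has 1 of 18 (Chrnb2) and the list of chloride transporters, chloride channels and cation pumps 3 of 32. The lists of 22 voltage-gated calcium channel genes, 5 HCN channel genes and 22 GABA-A and glycine receptor genes have 0 named genes, so they were not analysed here.

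Of 54 cell type markers, 5 are named, too few to check the tissue label. Camk2a, a kinase of excitatory neurons, stood at 0.56 ± 0.19 and the neuronal transcription factor Neurod2 at -0.46 ± 0.15 (JFLX minus control, log2, SE), and neither passed in limma. Camk2a and Neurod2 each passed in 1 of 14 other settings. Glul, the glutamine synthetase of astrocytes, was lower in JFLX (-0.51 ± 0.11) and passed, in the direction opposite to the astrocyte channel gene Kcnj10, but passed in only 3 of 14 other settings. The endothelial gene Pecam1, at 0.68 ± 0.25, did not pass. The platelet gene Ppbp passed as lower, also in 3 of 14 other settings, and was flagged as detected on 0 JFLX arrays and 4 control arrays in the authors' deposited table. Their part in the differences of the 7 genes was not tested.

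The gene annotation in the deposited lists gives 6 of the 7 genes the term integral to membrane, all but Kcng1, which carries no term. Ion transport is given to 5 genes, and Dpp6 is annotated there as a peptidase rather than a channel subunit. Synaptic transmission is given to Scn2b, Chrnb2 and Slc12a5.

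Promoters of 6 of the 7 genes were read, as a description, from RefSeq sequences of the build GRCr8, from 250 bases before to 50 after the gene start. The exception was Kcng1. The windows of Scn2b and Kcnc1 are shown as the extremes in base composition, with matches to the GC box (GGGCGG, either strand) in capitals.
Scn2b, chr8:54322133-54322432, plus strand: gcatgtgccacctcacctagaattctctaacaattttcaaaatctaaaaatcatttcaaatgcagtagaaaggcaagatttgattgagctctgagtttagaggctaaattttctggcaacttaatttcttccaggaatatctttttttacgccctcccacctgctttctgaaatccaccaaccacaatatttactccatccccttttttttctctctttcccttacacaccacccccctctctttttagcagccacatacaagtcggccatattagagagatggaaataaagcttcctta
Kcnc1, chr1:106038997-106039296, plus strand: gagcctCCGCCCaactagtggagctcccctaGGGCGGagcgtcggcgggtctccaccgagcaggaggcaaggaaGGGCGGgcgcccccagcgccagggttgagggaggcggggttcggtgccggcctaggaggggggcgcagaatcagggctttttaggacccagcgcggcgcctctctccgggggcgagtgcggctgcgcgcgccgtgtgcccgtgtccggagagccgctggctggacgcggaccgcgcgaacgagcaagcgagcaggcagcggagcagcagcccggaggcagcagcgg

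GC content was 39.0% in the Scn2b window and 74.0% in the Kcnc1 window, against a median of 52.3% over the promoters of 27457 genes. The GC box was found in 4 of the 6 windows, those of Kcnc1, Dpp6, Chrnb2 and Slc12a5, in 34.9% of all promoters and in 75.4% of the 236 promoters matched to the higher list. A half-site of the cAMP response element (TGACG, either strand) was found in the Kcnab1 window and in 22.0% of all promoters. A half-site of the RE1 element of the neuronal repressor REST (CAGCACC, either strand) was found in the Dpp6 window and in 6.91% of all promoters. The letters of a TATA box (TATAAA, either strand) were in 0 of the 6 windows and in 14.3% of all promoters. In the 236 promoters of the higher list the shares were 28.8%, 6.78% and 5.51%, in the same order. None of these motifs was common to all 6 windows, and no match overlapped another.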

How the data were processed

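Per the labels' protocols, 500 ng of total RNA from each of 4 JFLX and 4 control samples was labelled with Cy3 for custom Agilent arrays. Deposited log2 values are centred per probe on the control median. No source names the scanner software, background method or scaling between arrays. The deposited lists give the authors' background-subtracted intensity, the authors' p-value, whose test is not named, per the file headers, and counts of detected flags. Unlisted probes have no deposited p, so an unadjusted equal-variance t-test on the deposited values was used for them. Columns of folds and flags per array, 32 in all, were not used. Symbols came from gene IDs matched to RefSeq GRCr8 (551 of 582 listed probes). Other listed probes took the deposited gene name, and those with only an accession number as a name are unnamed here.

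Differences were fitted with limma 3.58.1 in R 4.3.3 (lmFit, eBayes) over all 15207 probes, treatment only, two-sided, Benjamini-Hochberg threshold 0.05. A run of limma on simulated data used planted differences larger than those of the 7 genes other than Scn2b. Recovery of smaller differences was not tested. The number of arrays limits precision. Alternatives were quantile normalization, 75th percentile centring, trend and robust eBayes, a replicate block, the equal-variance t-test, leaving out unlisted probes and leaving out each array; unscaled intensity was added after seeing the data. The genes and lists were chosen with earlier results of these data known. Named genes were the 7, every named member of the lists, and for each of the 7 the other named genes, up to 2, with the best correlated deviations. Tables and plots used Python 3.11.15, pandas 2.3.3, scipy 1.17.1 and matplotlib 3.10.9.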

Additional observations from a re-analysis of the deposited data

Results flagged for a closer look

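In 14 groups of 4 arrays (7 genes, 2 groups), 2 arrays stood apart from the rest of their group by Dixon's test, where chance gives about 1 in 20 groups. JFLX replicate 2 was the highest JFLX array for Kcnab1 with a value of 1.26, a gap of 0.834 of the group's range. Control replicate 2 was the lowest control array for Kcnc1 with a value of -0.26, a gap of 0.896 of the range. No explanation was tested for either value.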

How the results depend on the processing

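Over 105 values of the 7 genes under other settings, none changed direction, though a block, another test or fewer probes cannot change it. Of these values, 14 lost the threshold (9 of them for Dpp6, 3 for Chrnb2 and 2 for Scn2b), 1 gained it (Kcnc1 without JFLX replicate 4) and 4 unscaled values moved by more than the SD of the JFLX arrays. The unscaled shift was the same at all 7 genes, so those 4 are the genes with the smallest SD in JFLX. Of the 7 genes 3 passed as reported, and 2 to 4 with 1 array left out; the call of Dpp6 was lost without JFLX replicate 2, JFLX replicate 3, control replicate 3 or control replicate 4. With the replicate block 1 passed, with quantile normalization 0, and without the unlisted probes 0. Of all probes 950 passed as reported (896 higher, 54 lower; 682 and 221 with 75th percentile centring) and 780 to 907 with 1 array left out, with 0 under quantile normalization (1298 at an unadjusted p under 0.05), 6 without the 1117 unlisted probes and 764 with the replicate block. Dropping unlisted probes, all with an unadjusted t-test p of 0.05 or less, makes the adjustment stricter for those kept. The cause of the other changes was not tested. Deviations of same-numbered arrays correlated at -0.04, 0.40, 0.12 and -0.28, and those of differently numbered arrays at -0.25 to 0.36. With so few arrays, these values cannot decide whether replicate numbers pair the arrays. All 7 probes were detected on all arrays, but whether signal near background affects the size of their differences was not tested. Ppbp was detected on 0 JFLX arrays and Pecam1 on 3 of them, which limits their differences.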
